A study of Mus musculus with 2 samples.

Results

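The DNA replication and nucleotide supply genes are 44 mouse genes that encode the proteins that open, load and copy replication origins and the enzymes that make deoxynucleotides. They were picked by name, as spots whose gene symbol, or whose RefSeq accession's current symbol, is on the list. Older symbols such as Cdc45l and Orc1l counted, which named 7 of the genes. All 44 were measured, out of 13928 genes tested. They were covered by 78 spots and 69 distinct probes, and both dye channels were well above background on both arrays for all 44.

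The study compared LMO2 siRNA with control siRNA in G1E-ER-GATA-1, an established murine line that the labels describe as GATA-1-null. Both arms carry the estrogen receptor fusion of GATA-1, and after transfection both received b-estradiol for 24 h, which switches that fusion on and starts erythroid maturation. LMO2 is an adaptor protein of the transcription factor complex in which GATA-1 works. Each of 2 two-colour Agilent arrays received total RNA from both arms, with LMO2 siRNA RNA in Cy3 and control RNA in Cy5 on both. The dyes were not swapped, so a dye effect and an effect of the siRNA cannot be told apart for any single gene. Nothing in the labels says whether replicates 1 and 2 are separate cultures, and p-values therefore cover only how far these arrays differ, which may be technical. No untransfected cells, cells without b-estradiol or second siRNA were analysed here, and all values come from 1 line.

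Before a cell copies its DNA, the origin recognition complex, Cdc6 and Cdt1 load the MCM helicase onto origins in G1. In S phase the Cdc7-Dbf4 kinase and Cdc45 and GINS turn the loaded helicase into a moving fork, where the primase, polymerases, the PCNA clamp and its RFC loader copy both strands. Many of these genes are transcribed in late G1 under E2F factors, and erythroid precursors go through a last series of divisions as they mature.

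On each array the ratio of LMO2 siRNA over control was taken within the array, on a log2 scale, so that a value below 0 is a lower signal with LMO2 siRNA. Between 55.8% and 68.2% of the 43379 spots that were not controls were well above background in a channel. Lmo2 itself checked the labels: its normalised intensities were 5616 and 5837 with control siRNA and fell to 1618 and 1440 with LMO2 siRNA. Its log2 ratio was -1.91 ± 0.16 (SD, n = 2), a 3.75-fold lower signal, with a limma adjusted p of 6.68e-10. The labels give the tissue as erythroid but also call the cells ES cells. All 10 erythroid markers were measured (3 rose, 5 fell and 2 did not pass the test), with a summed normalised intensity of 286798 and 266950 in the LMO2 siRNA arm and 210502 and 200872 in the control arm. Their largest contributors, Hba-a1 and Hbb-bt, were saturated. Of 6 embryonic stem cell markers, Nanog, Sox2 and Zfp42 were not measured above background, and the summed intensity of the other 3 (1 rose, 0 fell) was between 339 and 377 in all 4 channels. Summed intensities of the megakaryocyte markers (5 of 5 measured) were 2824 and 2837 in the LMO2 siRNA arm against 2136 and 1966 (3 rose, 1 fell). Without Gp1ba the other 4 summed to 1189 and 1164 against 1357 and 1213. Among these, Itga2b and Pf4 rose and only Gp9 fell (540 and 461 against 736 and 648). Those of mast cell markers (5 of 5, 3 rose, 1 fell) were 486 and 495 against 462 and 456. Granulocyte and macrophage markers (4 of 5, Elane not measured, 1 rose, 1 fell) summed to 501 and 567 against 494 and 554, and lymphocyte markers (5 of 5, 0 rose, 1 fell) to 648 and 587 against 744 and 633. None of these had a value above 285, and calls this near the floor are uncertain. Among all genes 21.2% fell and 24.4% rose. The part of these markers in the results was not tested. In bulk RNA, fewer cells of a type and less RNA per cell cannot be told apart.

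Of the 44 replication and nucleotide genes, 30 fell, 3 rose and 11 did not pass the test (limma, adjusted p under 0.05 over all genes). Among all genes 21.2% fell and 24.4% rose in the same fit, 45.6% in all. The median log2 ratio of the 44 genes was -0.21 (-0.20 on replicate 1 and -0.24 on replicate 2), beside -0.009 for all genes. Every change was small: the 44 genes ranged from -0.55 to 0.49, and none was 1.5-fold lower. On both arrays 35 of them lay below 0, where 42.0% of all genes did, and 3 lay above 0, where 40.0% of all genes did. The other 6 differed in sign between the arrays. Over the genes at least as bright as the dimmest of the 44, 24.3% fell and 27.1% rose, with a median of -0.004, beside 68.2% and 6.82% of the 44.

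**Figure D1:**
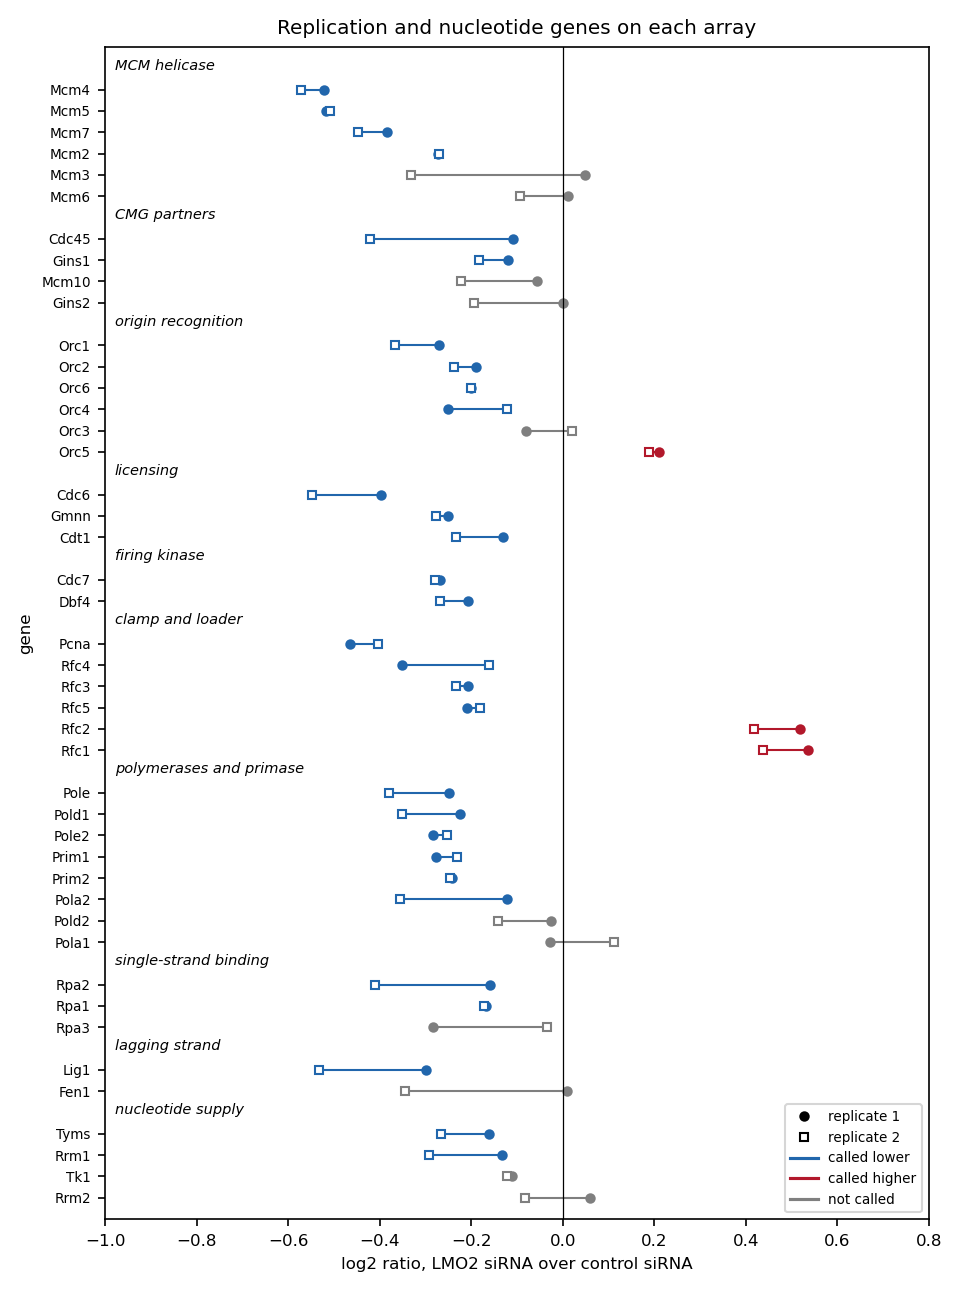
Log2 ratio of LMO2 siRNA over control siRNA for each of the 44 genes, grouped by role, with a filled circle for replicate 1 and an open square for replicate 2; colour marks the limma call on the mean of both arrays. The 30 blue genes fell and the 3 red genes (Rfc1, Rfc2 and Orc5) rose. Centring arrays on the median in place of loess puts these 3 below 0. Genes at least as bright as the dimmest of the 44 then have a median of -0.58.

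A count of calls depends on how the signals were processed. With the scanner's own processed signals, 5 of the 44 genes fell and 2 rose, beside 4.26% and 7.9% of all genes, and the prior degrees of freedom for the spread were 2.26 in place of 11.3. The direction was the same for most: 40 of 44 genes were below 0 with those signals, where 55.0% of all genes were, and 24 were lower at an unadjusted p under 0.05, where 20.7% of all genes were. Median centring without loess moved the median of all genes to -0.37, and then 43 of the 44 genes were called lower and 0 higher, among 8905 genes lower and 1190 higher. Their median was -0.82 on that scale, beside -0.58 for genes at least as bright as the dimmest of the 44. A stricter rule asked for an unsaturated probe called the same way with the main values, without the scanner's correction for spot position and with its processed signals. By that rule 5 of the 44 genes fell (Mcm4, Mcm5, Mcm7, Cdc6 and Pcna), where 3.02% of all genes did, and 2 rose (Rfc1 and Rfc2), where 6.14% did. Some passed narrowly: with processed signals the limma adjusted p was 0.0488 for Mcm7, 0.0481 for Cdc6 and 0.0473 for Pcna. With the deposited log ratios in place of those signals, Mcm7 and Cdc6 lost the call.

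Promoter sequence was looked up for the 7 genes that passed the stricter rule in these data. It was taken from RefSeq (GRCm38.p6), as the 250 bases before the transcription start, 5′ to 3′ on the gene's own strand. The table held 37 of the 44 genes and 5 of these 7. Mcm4 and Rfc2 were not among them. Capitals mark E2F-type letters, searched as TTTCCCGC, TTTGGCGC, TTTCGCGC and TTTGCCGC on both strands, in which neighbouring matches may overlap. The windows are chr8:75109259-75109508 on the plus strand for Mcm5, chr5:138171884-138172133 on the minus strand for Mcm7 (the first of its 2 listed starts), chr11:98907901-98908150 on the plus strand for Cdc6, chr2:132253181-132253430 on the minus strand for Pcna and chr5:65335640-65335889 on the minus strand for Rfc1.
Mcm5: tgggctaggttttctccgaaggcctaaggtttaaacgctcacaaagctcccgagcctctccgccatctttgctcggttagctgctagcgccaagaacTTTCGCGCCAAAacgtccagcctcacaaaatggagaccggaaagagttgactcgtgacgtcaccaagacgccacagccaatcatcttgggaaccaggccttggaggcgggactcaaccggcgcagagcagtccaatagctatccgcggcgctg
Mcm7: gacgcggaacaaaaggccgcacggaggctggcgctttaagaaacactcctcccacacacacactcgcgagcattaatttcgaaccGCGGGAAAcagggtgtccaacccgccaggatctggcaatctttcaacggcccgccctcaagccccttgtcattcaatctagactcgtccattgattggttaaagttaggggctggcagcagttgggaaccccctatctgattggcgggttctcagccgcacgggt
Cdc6: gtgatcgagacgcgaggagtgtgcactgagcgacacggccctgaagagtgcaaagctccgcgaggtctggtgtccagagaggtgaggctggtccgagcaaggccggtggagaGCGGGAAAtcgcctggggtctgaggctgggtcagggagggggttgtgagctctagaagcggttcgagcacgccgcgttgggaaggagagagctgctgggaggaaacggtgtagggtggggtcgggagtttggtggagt
Pcna: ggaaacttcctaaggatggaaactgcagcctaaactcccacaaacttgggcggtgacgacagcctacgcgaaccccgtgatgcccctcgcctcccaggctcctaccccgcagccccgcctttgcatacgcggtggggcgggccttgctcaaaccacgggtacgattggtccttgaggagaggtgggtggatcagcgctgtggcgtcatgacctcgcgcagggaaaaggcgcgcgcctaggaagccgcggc
Rfc1: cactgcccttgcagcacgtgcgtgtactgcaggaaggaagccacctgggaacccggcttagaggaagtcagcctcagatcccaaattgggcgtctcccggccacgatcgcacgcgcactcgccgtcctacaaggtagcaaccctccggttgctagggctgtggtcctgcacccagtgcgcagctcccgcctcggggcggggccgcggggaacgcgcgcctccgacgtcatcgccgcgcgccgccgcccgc

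In Mcm5 the matches TTTCGCGC and GCGCCAAA overlapped, starting at -153 and -149 from the transcription start. In Mcm7 the match was GCGGGAAA at -165 from the first start, with none in the 250 bases before the second start, and in Cdc6 GCGGGAAA at -138. The Pcna and Rfc1 windows held none of these letters, which says nothing of binding there. In windows reaching from 250 bases before to 50 after a start, the letters stood in 13 of the 37 genes (35.1%) and in 704 of the 27025 genes in the table (2.61%). CCAAT (both strands) stood in 22 of the 37 genes (59.5%), beside 41.1% of all, and AGATAA or TGATAA (both strands), the letters GATA factors bind, in 4 (10.8%), beside 21.0%. Of the 13 genes with E2F-type letters 9 fell, 0 rose and 4 did not pass the test, with a median log2 ratio of -0.27. Of the 24 without them 16 fell, 2 rose and 6 did not pass, with a median of -0.21. Among all genes 21.2% fell and 24.4% rose, and the difference between genes with and without the letters was not tested. The shares are descriptions: a match is not a site, and the 44 genes were chosen by function.

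The MCM helicase, the hexamer that unwinds DNA, had the lowest median of the groups by role: 4 of its 6 subunit genes fell, 0 rose, and the median was -0.34. Counts by role, here and below, stand beside 21.2% lower and 24.4% higher among all genes. The groups hold only 2 to 8 genes each. Mcm4 had normalised intensities of 26098 and 20152 with LMO2 siRNA and 37492 and 29987 with control siRNA on replicates 1 and 2. That is a log2 ratio of -0.55 ± 0.04 (SD, n = 2), 1.46-fold lower, with a limma adjusted p of 6.80e-06. Both control values lay above both LMO2 siRNA values. Intensities were normalised within arrays only, so whether the arms overlap across arrays also depends on the brightness of each array. The share of all genes without such overlap was not counted.

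Mcm5 gave 13469 and 10385 against 19293 and 14777, a log2 ratio of -0.51 ± 0.007 (adjusted p 1.09e-05). Mcm7 gave 15524 and 12262 against 20273 and 16725, a log2 ratio of -0.42 ± 0.04 (adjusted p 6.93e-05). Mcm2 gave 9346 and 7405 against 11287 and 8928, a log2 ratio of -0.27 ± 0.002 (adjusted p 1.52e-03). The arms did not overlap for Mcm5 and Mcm7, while for Mcm2 the LMO2 siRNA value of replicate 1 exceeded the control value of replicate 2 and only the ratio within each array separated them. The 2 other subunits did not pass the test. Mcm6 was at 0.01 and -0.09, but without the position correction it was called higher (0.18, adjusted p 0.0082). Mcm3 was at 0.05 and -0.33 with its brightest probe, whose control channel was saturated on each array. A second, unsaturated Mcm3 probe gave 0.04 and -0.25.

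Cdc45 and the GINS proteins join the MCM ring to make the active helicase, and Mcm10 helps start it. Cdc45 fell (-0.27 ± 0.22, SD, n = 2; -0.11 and -0.42 on the arrays), with a spread almost as wide as its mean. Gins1 fell by less (-0.15 ± 0.04, adjusted p 0.0385), and a second Gins1 probe gave -0.36. Without the position correction Gins1 lost its call (-0.06, adjusted p 0.352), as it did with no background subtraction (adjusted p 0.055), an offset of 10 (adjusted p 0.097) and the running median over rows (adjusted p 0.096). Gins2 at -0.10 and Mcm10 at -0.14 did not pass the test.

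The origin recognition complex marks the sites where the helicase is loaded. Of its 6 subunit genes 4 fell, 1 rose and 1 did not pass. Orc1, the subunit whose level changes through the cell cycle, fell by 0.32 ± 0.07 (limma adjusted p 6.08e-04), with intensities of 603 and 470 against 727 and 605. Orc2 (-0.21 ± 0.03), Orc6 (-0.20 on both arrays) and Orc4 (-0.19 ± 0.09) fell too. Without the position correction Orc2 was at 0.003 (adjusted p 0.970), Orc1 at -0.28, Orc6 at -0.53 and Orc4 at -0.33, so the 4 have no settled order. Orc4 lost its call with the mean of its probes (-0.06, adjusted p 0.34), with a normexp offset of 10 (adjusted p 0.059) and with the running median over rows (adjusted p 0.054). Orc5 rose, with 491 and 481 against 424 and 423 and a log2 ratio of 0.20 ± 0.02 (adjusted p 0.0098), but its second probe gave -0.15. That dimmer probe was well above background with LMO2 siRNA on 1 array only. The mean of both probes was 0.02 (adjusted p 0.71), and median centring put Orc5 at -0.23. Orc3 did not pass (-0.03) and was called higher without the position correction (0.15, adjusted p 0.028). Its 4 other probes, in rows 119, 364, 20 and 497, were at 0.28, -0.15, 0.22 and -0.20. Without the position correction those probes were at 0.10, -0.03, -0.13 and -0.03. Orc4 also had probes of both signs (-0.08, -0.07 and 0.09 for the 3 others).

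The licensing factors bring the MCM ring to the origin, and geminin (Gmnn) blocks Cdt1 once replication has begun. All 3 fell. Cdc6 fell most, from 7435 and 6225 with control siRNA to 5648 and 4258, a log2 ratio of -0.47 ± 0.11 (adjusted p 4.07e-05). A second Cdc6 probe gave -0.61. Gmnn was at -0.26 ± 0.02 (adjusted p 0.00183) and Cdt1 at -0.18 ± 0.07 (adjusted p 0.0185). The call on Cdt1 was lost without the position correction (-0.05, adjusted p 0.459). Both genes of the kinase that fires licensed origins fell as well, Cdc7 by 0.27 ± 0.01 (adjusted p 0.00144) and its activator Dbf4 by 0.24 ± 0.04 (adjusted p 0.00376). The 2 further Cdc7 probes were at -0.21 and -0.19. Further Dbf4 probes were at -0.13 and -0.30, the latter not well above background with LMO2 siRNA on either array.

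Within the sliding clamp and its loader, genes moved in opposite directions. PCNA is the ring that holds polymerases on DNA, and replication factor C, made of Rfc1 to Rfc5, opens it and closes it around the template. Pcna fell, from 23780 and 18613 to 17238 and 14073, a log2 ratio of -0.43 ± 0.04 (adjusted p 4.89e-05), with no overlap between the arms. The large loader subunit Rfc1 rose, from 4359 and 3646 to 6318 and 4940, a log2 ratio of 0.49 ± 0.07 (adjusted p 2.26e-05). Rfc2 rose from 26553 and 24318 to 38012 and 32472, a log2 ratio of 0.47 ± 0.07 (adjusted p 3.18e-05), and its second probe gave 0.39. For both, the LMO2 siRNA values of both arrays lay above both control values. These comparisons across arrays rest on intensities that were not scaled between arrays.

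The other small subunits fell. Rfc3 went from 1511 and 1261 to 1310 and 1072 (-0.22 ± 0.02, adjusted p 0.00564). Rfc5 went from 11669 and 9399 to 10085 and 8286 (-0.20 ± 0.02, adjusted p 0.0107). Rfc4 went from 16452 and 8759 to 12900 and 7837 (-0.26 ± 0.13, adjusted p 0.0045), and that call was lost without the position correction (-0.03, adjusted p 0.681). For these 3 genes the arms overlapped across arrays, which were not scaled to each other, and differed within each array. The loader is a complex of all 5, and on these arrays 2 of its genes rose and 3 fell. Rfc1 and Rfc2 rose under loess, with processed signals and without the position correction, but median centring gave -0.14 for Rfc1 and -0.25 for Rfc2, above the -0.58 median of genes at least as bright as the dimmest of the 44. Their difference from the other loader genes was not tested.

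**Figure D2:**
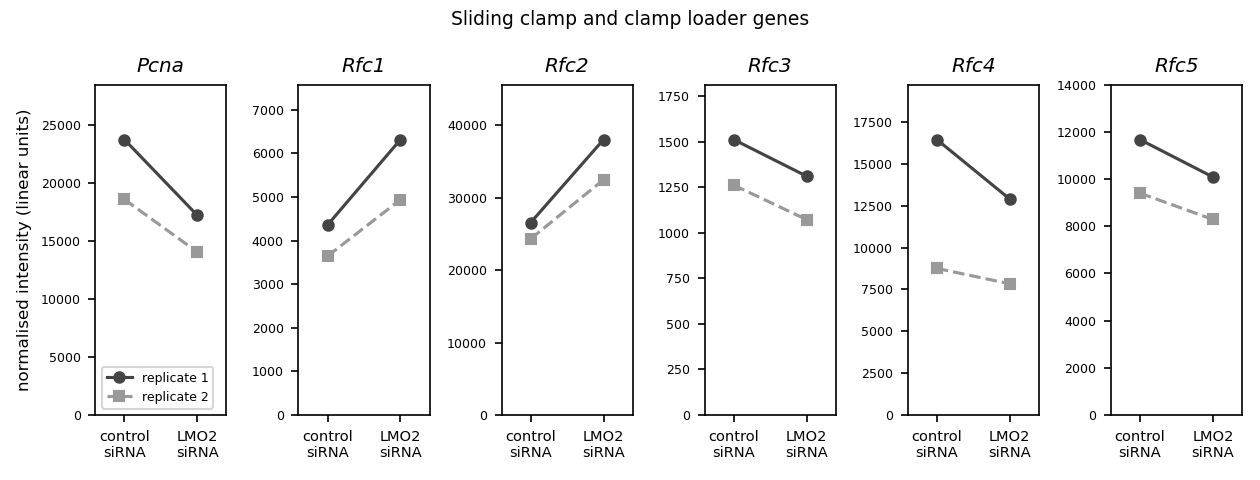
Normalised intensity, in linear units from 0, of the sliding clamp gene Pcna and the 5 loader genes in the control siRNA and LMO2 siRNA channels; each line joins the 2 channels of 1 array, and the vertical scale differs between panels. Lines slope up for Rfc1 and Rfc2 and down for Pcna, Rfc3, Rfc4 and Rfc5 on both arrays; under median centring the log2 ratios of Rfc1 and Rfc2 turn to -0.14 and -0.25.

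Of the 8 polymerase and primase genes 6 fell and 0 rose, with a median of -0.25. Pole, the catalytic subunit of the polymerase that copies the leading strand, fell by 0.31 ± 0.09 (adjusted p 8.25e-04), and its second, dimmer probe was at -0.13. Pole2 fell by 0.27 ± 0.02 (adjusted p 0.0017). Pold1, the catalytic subunit of the lagging strand polymerase, fell by 0.29 ± 0.09 (adjusted p 0.00143), though its second probe was at -0.02. Both primase genes, whose proteins lay the RNA primers, fell, Prim1 by 0.25 ± 0.03 and Prim2 by 0.24 ± 0.003. Pola2, the accessory subunit of polymerase alpha, fell by 0.24 ± 0.16. Its second measured probe, well above background with LMO2 siRNA on 1 array only, was at -0.11. Pola1, the catalytic subunit of polymerase alpha, was at 0.04 and Pold2 at -0.08, and neither passed. Spots of Prim1, Pole2 and Pole lie in the first rows of the array, and without the position correction their ratios were -0.65, -0.67 and -0.69, while Prim2 was at -0.33. Pola1 was called higher there (0.15, adjusted p 0.0259).

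Among the single-strand binding protein genes, which coat the unwound DNA, Rpa2 (-0.29 ± 0.18) and Rpa1 (-0.17 ± 0.003) fell, with limma adjusted p of 0.00354 and 0.0218. Rpa1 lost its call with an offset of 10 (adjusted p 0.056). Rpa3 (-0.16 ± 0.18, adjusted p 0.061) did not pass, but was called lower without the position correction (-0.41, adjusted p 3.6e-07). In lagging strand processing, Lig1, the ligase that seals Okazaki fragments, fell from 32561 and 26173 to 26484 and 18076, a log2 ratio of -0.42 ± 0.17 (adjusted p 2.32e-04). It was near -0.39 with the processed signals but did not pass there (adjusted p 0.0752). Fen1, the flap nuclease that works before it, was at 0.01 and -0.35 on the arrays and did not pass.

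Of the 4 nucleotide supply genes 2 fell and 0 rose, beside 21.2% and 24.4% of all genes, with a median of -0.16. Tyms, the enzyme that makes thymidylate, fell by 0.21 ± 0.08 (adjusted p 0.00813), with a second probe at -0.25 and a dimmer probe at 0.12. With the mean of its probes Tyms was at -0.11 and lost its call (adjusted p 0.095). Rrm1, the large subunit of ribonucleotide reductase, fell by 0.21 ± 0.11 (adjusted p 0.0106). Its partner Rrm2 was at 0.06 and -0.08 on the arrays (adjusted p 0.875), and Tk1, the thymidine salvage kinase, was at -0.11 and -0.12 (adjusted p 0.0935). Neither passed, but without the position correction Rrm2 was called higher (0.23, adjusted p 0.0011) and Tk1 lower (-0.13, adjusted p 0.043).

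A list of 74 further replication and nucleotide genes, none among the 44, showed 27 that fell (36.5%), 11 that rose (14.9%) and 36 that did not pass, with a median of -0.10, beside the 21.2% and 24.4% of all genes. Of 41 fork, origin and chromatin assembly genes 22 fell (53.7%) and 1 rose (2.44%), with a median of -0.16. Of 33 genes grouped here as nucleotide enzymes, 5 fell (15.2%) and 10 rose (30.3%), shares near those of all genes, with a median within 0.001 of 0. This group includes Slc29a1, a nucleoside transporter and not an enzyme, which rose. With median centring the medians were -0.74 and -0.47, beside -0.37 for all genes and -0.58 for genes at least as bright as the dimmest of the 44. The difference between these 2 sets of genes was not tested.

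The lowest of the further genes was Wdhd1 (-0.50 ± 0.09, adjusted p 2.26e-05), which links the helicase to polymerase alpha. Gins4 (-0.48 ± 0.12), a GINS subunit, and Donson (-0.40 ± 0.01) and Mtbp (-0.39 ± 0.10), which act in origin firing, fell too. Among the enzymes, Pfas (-0.47 ± 0.13) of purine synthesis fell. The highest was Ctps2, which makes CTP, with 918 and 1010 against 482 and 483, log2 ratios of 0.93 and 1.06 on the arrays and a limma adjusted p of 4.36e-08. Impdh1, of guanine nucleotide synthesis, followed with 367 and 368 against 225 and 207 (0.77 ± 0.09, adjusted p 4.30e-07). Nme2 (0.47 ± 0.11), a nucleoside diphosphate kinase nearly identical to Nme1, and Chtf8 (0.41 ± 0.11), part of an alternative clamp loader, rose as well. Adssl1 rose by 0.29 ± 0.02, but its probe is a dim one in row 38, among the first rows, and it was at -0.03 without the position correction (adjusted p 0.726). With median centring Chtf8 stood at 0.02 and Nme2 at -0.23, while Ctps2 stayed at 0.52 and Impdh1 at 0.42.

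**Figure D3:**
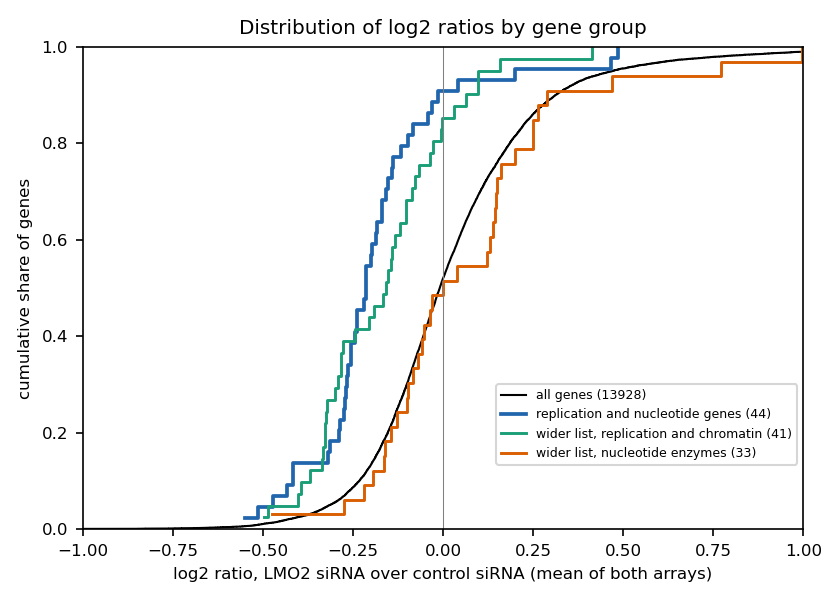
Cumulative share of genes against the mean log2 ratio of LMO2 siRNA over control siRNA, for all 13928 genes, the 44 replication and nucleotide genes, and the 2 parts of the further list (41 and 33 genes); the axis stops at -1 and 1, and 139 of all genes lie outside it. Between about -0.5 and 0.45 the curve of the 44 genes lies left of that of all genes, and below -0.55, where 0 of the 44 lie, it is to the right, with medians of -0.21 and -0.009, while the nucleotide enzymes have a median near 0. Median centring moves the median of all genes to -0.37 and that of the nucleotide enzymes to -0.47, beside -0.58 for genes at least as bright as the dimmest of the 44.

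Spot position bore on the values. Without the scanner's position factor, which divides out a smooth trend over the array, the median log2 ratio of 13439 brighter probes ran from -0.34 in the first eighth of rows to 0.20 in the last. With it the medians of the eighths stayed between -0.03 and 0.01. All 44 genes are in that brighter class. For 11237 dimmer probes the factor widened the drift: the medians ran between -0.09 and 0.21, with the highest in the first eighth, against -0.10 to 0.09 without it. The shares of all genes called include those dimmer probes. The 14 of the 44 genes in the first rows (the lowest of 4 equal ranges) had a median of -0.26 and the 9 in the last rows (the highest) -0.10 with the factor, against -0.50 and 0.12 without it. Pcna is placed by its first spot, in row 33, although its value is the mean of 10 spots, so its row is not well defined. Over the 44 genes, which share the same 2 hybridisations, the ratio's correlation with row was 0.79 without the factor and 0.38 with it, given here as a description. Without the factor 28 of the 44 genes fell and 7 rose, beside 27.5% and 25.2% of all genes. Of the 30 genes that fell with it, 26 also fell without it, and the exceptions were Gins1, Orc2, Cdt1 and Rfc4. After a running median over rows was taken off as well, an alternative chosen after seeing the data, 28 of the 44 genes fell and 3 rose, beside 18.8% and 24.0% of all genes.

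**Figure D4:**
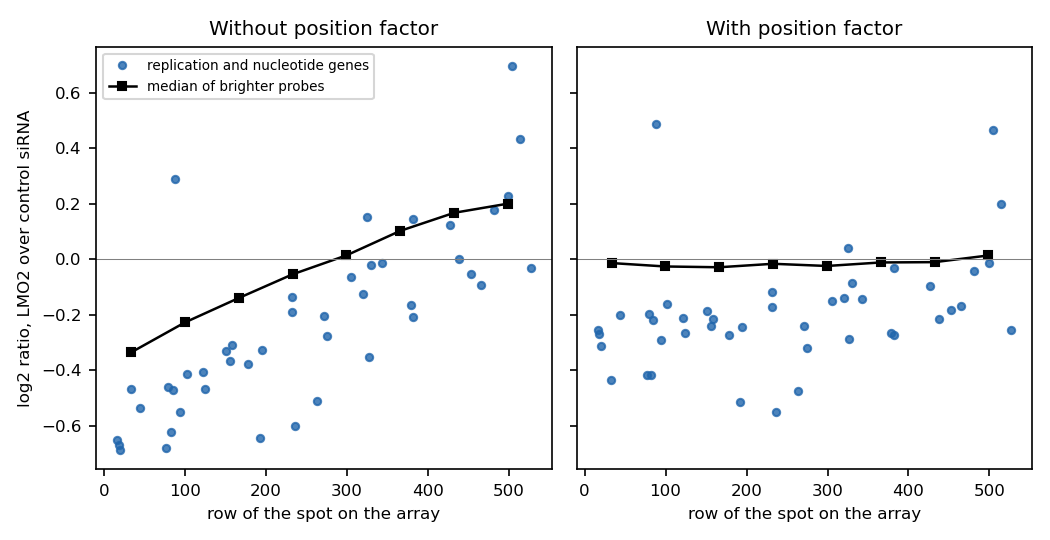
Mean log2 ratio of LMO2 siRNA over control siRNA of the 44 genes (blue points) against the row of the spot on the array, without (left) and with (right) the scanner's position factor. Black squares are medians of brighter probes in 8 equal ranges of rows. Pcna, the mean of 10 spots, is drawn at the row of its first spot. The medians rise from -0.34 to 0.20 on the left and stay between -0.03 and 0.01 on the right, where most of the 44 genes lie below 0 in all ranges. Rfc1, Rfc2 and Orc5, above 0 here, lie below 0 with median centring. Genes at least as bright as the dimmest of the 44 then have a median of -0.58.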

How the data were processed

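RNA of LMO2 siRNA and control siRNA cells was compared on 2 two-colour arrays, with the dye of each arm per the labels. Scans were read with Feature Extraction (version 9.1.3.1) per the file headers. In the deposited scanner files, mean signal, local background and processed signal are linear intensity values per spot and channel, and the position factor is a multiplicative ratio. The deposited series table holds log10 ratios of Cy5 over Cy3, equal to the scanner's within 0.005 on both arrays, with a median of 0, so its scale, centring and direction are known. No source used here gives the array's genome build.

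Mean signals were background-corrected by normexp with an offset of 50, using limma 3.58.1 under R 4.3.3, divided by the position factor and then loess-normalized within each array (weight 0 for control spots). The sign of each log2 ratio was set so that LMO2 siRNA is the numerator. Of 41174 probes, 24676 had at least 1 channel well above background on both arrays, and the brightest of these stood for each gene. A RefSeq accession (gene table of GRCm38.p6) named 24844 probes, a current symbol in the file 6045, an older alias 1810 and the file's symbol alone 1797. The other 6678 have no symbol.

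The mean of both arrays was tested against 0 with limma (lmFit, eBayes), with 11.3 prior degrees of freedom beside 1 residual one. P-values were adjusted by Benjamini-Hochberg across the 13928 genes, with a threshold of 0.05. The scripts were tested on simulated data. Alternatives were no position factor, processed signals, the series table, offset 10, no background subtraction, median centring, other filters, the mean of probes, another variance prior, a test against a 1.2-fold change and each array alone. A running median over 41 rows was added after seeing the data. No reads or depth exist for arrays, and their number limits the precision. Both arrays carry the same scan date in the headers, and each holds both arms, so no batch could be tested.

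The 44 genes, the further list, the markers and the motifs were chosen with earlier results of these data known. All 44 genes are named, and from the further list up to 5 called genes in each direction by size of change.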

Additional observations from a re-analysis of the deposited data

How the results depend on the processing

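Refitting the 44 genes under 13 alternatives gave 572 values, of which 483 kept direction and call, 66 lost the call, 13 gained one and 10 changed sign. Changes of sign came without the position factor for Gins2 (0.123), Mcm6 (0.179), Orc2 (0.00302), Orc3 (0.147) and Rrm2 (0.228), with the mean of probes for Orc3 (0.0262), and with median centring for Orc5 (-0.227), Pola1 (-0.557), Rfc1 (-0.142) and Rfc2 (-0.254). Of the 44 genes, 5 were lower with processed signals, 3 with the series table and 3 in a test against a 1.2-fold change, and 0 were higher with median centring and 7 without the position factor. Their median was -0.824 with median centring and -0.293 without the position factor, and -0.242 and -0.195 on single arrays. Lower and higher calls over all genes were 8905 and 1190 with median centring, 594 and 1101 with processed signals, 543 and 1038 with the series table and 233 and 752 against 1.2-fold. In the further list they were 68 and 3, 5 and 4, 2 and 4, and 3 and 3 in the same order, and 19 were higher without the position factor. The further list's median was -0.689 with median centring. The median of all genes was -0.368 with median centring, -0.033 with processed signals and with the series table, -0.0178 with no filter, -0.0163 without the position factor, -0.0123 without saturated probes, -0.0122 with offset 10, -0.00669 with the mean of probes, -0.00329 with the row running median and -0.00184 with no background subtraction, and ranged from -0.00709 to -0.00409 over the single arrays. The cause of these shifts was not tested. Lmo2 kept its direction and call in all refits. With 1 array there is no test. No paired analysis was possible because none remained to add: the ratio within an array already pairs both arms, and 1 group of ratios takes no further block. Both channels were above background on both arrays for all 44 genes, so the number of arrays and the single dye orientation limit these values.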
